A study of Mus musculus with 6 samples.

Results

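Heat shock and chaperone genes were followed across the cell classes of the mouse brain border. The 71 members were all measured genes with an Hspa, Hspb, Hspd, Hspe, Hsph, Dnaja, Dnajb or Dnajc symbol followed by a number, with Hsp90aa1, Hsp90ab1 and Hsp90b1 added and Hspb3 left out, from 31053 genes in the count tables. The rule reads gene names only. Single cells came from wild-type C57BL6 adult mice of either sex, with several mice pooled in each 10x Genomics run. Cortical surface-associated cells (labelled Brain, 4 libraries) were freed enzymatically from the top of the cortex, and bone-associated cells (labelled Dura/Skull, 2 libraries) from the connective tissue under the removed skull. Viable nucleated cells were sorted before capture. No treatment was given, and the mice were not perfused. The labels give 1 papain protocol for all 6 libraries, written for another brain region. The study's methods instead give collagenase and dispase for both preparations, with bone-associated tissue chopped and vortexed during digestion and the cortex held on a coverslip and rinsed by pipette. Under these methods tissue of origin and handling cannot be told apart in any difference between the preparations.

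Heat shock proteins are molecular chaperones that bind unfolded or partly folded proteins. The HSP70 proteins (Hspa genes) bind and release short hydrophobic stretches in a cycle driven by ATP, the J-domain proteins (Dnaj genes) deliver clients to them and start the ATP hydrolysis, and the HSP110 protein Hsph1 exchanges the nucleotide. HSP90 proteins complete the folding of kinases and receptors, and small heat shock proteins (Hspb genes) hold unfolded clients without ATP. Heat, oxidation and tissue handling release the transcription factor HSF1, which binds heat shock elements (inverted repeats of GAA) and drives Hspa1a, Hspa1b, Dnajb1 and other inducible members. Unfolded protein in the endoplasmic reticulum (ER) acts through another element, the ERSE, on Hspa5, Hsp90b1 and other chaperones of that compartment. Small heat shock proteins are known as abundant proteins of muscle.

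Promoter windows of some members with a matched element are shown first, to give the elements that the known regulators of heat-inducible and ER chaperones bind. Elements were searched in RefSeq promoter sequences (build GRCm38.p6, from 250 bases before to 50 bases after the start) for 57 members with 74 promoters. The 15 promoters of the heat-inducible cytosolic set, which also holds mitochondrial Hspd1 and Hspe1, came from 9 of its 12 genes. Hspa8 and Hsp90aa1 were among the members without a promoter in these sequences. A pair of repeats, GAANNTTC or TTCNNGAA, was present in 15.1% of all 32851 promoters, in 9 of the 15 promoters of the heat-inducible cytosolic set and in 1 of the 7 of the ER members. The full element of 3 repeats (GAANNTTCNNGAA or TTCNNGAANNTTC, which contains the pair) was present in 0.603% of all promoters and in 6 of the 74 of the members. The ERSE (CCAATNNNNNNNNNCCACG on either strand) was present in 0.119% of all promoters, in 3 of the 7 promoters of the ER members and in 0 of the 15 of the heat-inducible set. A match describes letters in a window and is not a measured binding site. The windows below have 30 bases each, read 5′ to 3′ on the strand of the gene, with the matched heat shock element or ERSE in capitals. Those of Hspa1a (chr17:34972242-34972271, minus strand) and Hspa1b (chr17:34959324-34959353, minus strand) lay upstream of genes annotated at chr17:34969190-34972156 and chr17:34956436-34959238, and had the same letters. Hspe1 (chr1:55088053-55088082, plus strand) shared its window with Hspd1 on the minus strand, and the same bases lay upstream of the annotated Hspe1 gene (chr1:55088132-55091307) and within the annotated span of Hspd1 (chr1:55077835-55088243). The other windows were at chr5:135887811-135887840 (Hspb1, plus), chr5:149636351-149636380 (Hsph1, minus), chr4:40722333-40722362 (Dnaja1, plus), chr3:152193846-152193875 (Dnajb4, minus), chr5:29735843-29735872 (Dnajb6, plus), chr2:34772019-34772048 (Hspa5, plus), chr10:86705528-86705557 (Hsp90b1, minus) and chr14:118937821-118937850 (Dnajc3, plus). In the GENCODE annotation those of Hspb1, Hsp90b1 and Dnajc3 lay upstream of the gene, that of Hsph1 across its first base, and those of Dnaja1, Dnajb4, Dnajb6 and Hspa5 within the annotated span.
Hspa1a: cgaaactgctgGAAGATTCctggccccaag
Hspa1b: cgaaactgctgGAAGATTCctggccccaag
Hspe1: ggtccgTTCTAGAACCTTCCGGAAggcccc
Hspb1: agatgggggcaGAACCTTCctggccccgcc
Hsph1: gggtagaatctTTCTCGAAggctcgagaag
Dnaja1: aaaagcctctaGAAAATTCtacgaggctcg
Dnajb4: gttcgttcgttcgctgTTCTAGAAagtaca
Dnajb6: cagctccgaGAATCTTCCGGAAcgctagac
Hspa5: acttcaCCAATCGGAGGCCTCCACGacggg
Hsp90b1: agagtgCGTGGTGAGGCACGATTGGtgagt
Dnajc3: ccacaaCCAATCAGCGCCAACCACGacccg

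After filtering, 8680 cells remained with medians of 5453 to 9525 unique molecular identifiers (UMIs, counted mRNA molecules) per cell in the 6 libraries. Clustering without the members left 7621 cells in named classes, each called "-like" from a list of markers, and 1059 unnamed. Counts were summed over the cells of a class in a library and given as CPM, the level of a gene when the UMIs that are not hemoglobin are scaled to a total of 1000000. Hemoglobin transcripts made up 84.6% of all UMIs in cortical surface library 3, 71.9% in library 4 and 0.0908% to 0.520% in the other 4 libraries. Because cortical surface libraries 3 and 4 stood apart in this way, the counts of members between preparations below are also given without them and without libraries 1 and 2, where enough libraries remained. The shares of all genes beside the counts are from the main fits. Counts with libraries left out or under another setting have no such share beside them, so they are not by themselves a result about the members. The separate libraries were the replicates, and p-values between preparations within a class measure the spread between them. Between classes and in the interaction, library was a term of the fit. There p-values measure the spread left between combinations of library and class, which share libraries and are not independent replicates. In the cortical surface VSMC-like cells entered only from libraries 1 and 2, and monocyte-like and neutrophil-like cells only from libraries 3 and 4. The library term takes 1 library difference for all classes. For Hspa1a that of libraries 1 and 2 over 3 and 4 ran from 1.26 to 4.64 on the log2 scale over 7 classes. Class and library are thus not fully told apart in these comparisons.

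Few members carried most of the chaperone RNA. Hspa8, the constitutive cytosolic HSP70, held 15.4% of all member UMIs and the constitutive HSP90 gene Hsp90ab1 13.6%. The heat-inducible HSP70 genes Hspa1a and Hspa1b, near-identical neighbours between which reads may be misassigned, held 9.09% and 8.52%. Together 5 members held 52.9% and 10 held 75.6%, with the ER HSP70 gene Hspa5 at 5.28% and the small heat shock gene Hspb1 at 5.16%. Dnajb8 and Dnajc5g had 0 UMIs in every library. The 12 genes of the heat-inducible set (Hspa1a, Hspa1b, Hspa8, Hsph1, Hsp90aa1, Hsp90ab1, Dnaja1, Dnajb1, Dnajb4, Hspb1, Hspd1 and Hspe1) and the 8 ER members (Hspa5, Hsp90b1, Hspa13, Dnajb9, Dnajb11, Dnajc1, Dnajc3 and Dnajc10) were summed for each class. Despite its name, the heat-inducible set holds the constitutive Hspa8 and Hsp90ab1, which had the largest shares above. Its sums and counts therefore do not measure induction alone.

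The summed level of the heat-inducible set differed more between libraries of 1 class than between many classes. In border macrophage-like cells it was 23901 and 16674 CPM in cortical surface libraries 1 and 2, 3014 and 4727 CPM in libraries 3 and 4, and 8871 and 13009 CPM in the 2 bone-associated libraries. In pericyte-like cells it was 9711 and 10625 CPM, then 3244 and 3493 CPM, and 9550 and 15583 CPM in bone. In both classes cortical surface libraries 1 and 2 lay near or above the bone libraries and libraries 3 and 4 below all others. The border macrophage-like class held different clusters in these libraries. A cluster led by Ccl7, Ccl2 and Hmox1 held 129 and 156 cells of libraries 1 and 2 and 6 and 16 cells of libraries 3 and 4, and a shallower cluster led by Chp2, Gpx3 and Cd209g held 16, 19, 77 and 90 cells. In the remaining cluster, led by Ms4a14, Adam33 and Lyve1 and chosen after the clusters were seen, the heat-inducible sum was 10629 and 12503 CPM in libraries 1 and 2 and 3030 and 5690 CPM in libraries 3 and 4, from 39, 34, 51 and 61 cells. Libraries 1 and 2 were thus above libraries 3 and 4 within this cluster too, by less than in the whole class. The same order was seen in the Ccl7 cluster, with 26438 and 17651 against 2086 and 4587 CPM. In the Chp2 cluster the sums were 22341 and 7129 against 3267 and 3072 CPM. Each of these clusters had few cells in some libraries. Microglia-like cells, present in the cortical surface only, had 16173 and 13891 CPM in libraries 1 and 2 against 3338 and 4421 CPM in libraries 3 and 4. Mesenchymal-like cells ranged from 2371 to 3819 CPM in the cortical surface and had 4031 and 5431 CPM in bone, and B-like cells ranged from 3092 to 5023 CPM and had 5823 and 4984 CPM. In the bone preparation Schwann-like cells had 18265 and 23950 CPM, above every other class, and mast-like cells had 17720 and 15250 CPM, which overlapped pericyte-like cells. Library 1 held 15 cells of each of these classes. The ER sum moved within narrower limits. It was 2580, 1918, 1937 and 2096 CPM in the 4 cortical surface libraries of border macrophage-like cells and 2007 and 1566 CPM in bone, so that these groups overlapped.

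**Figure D1:**
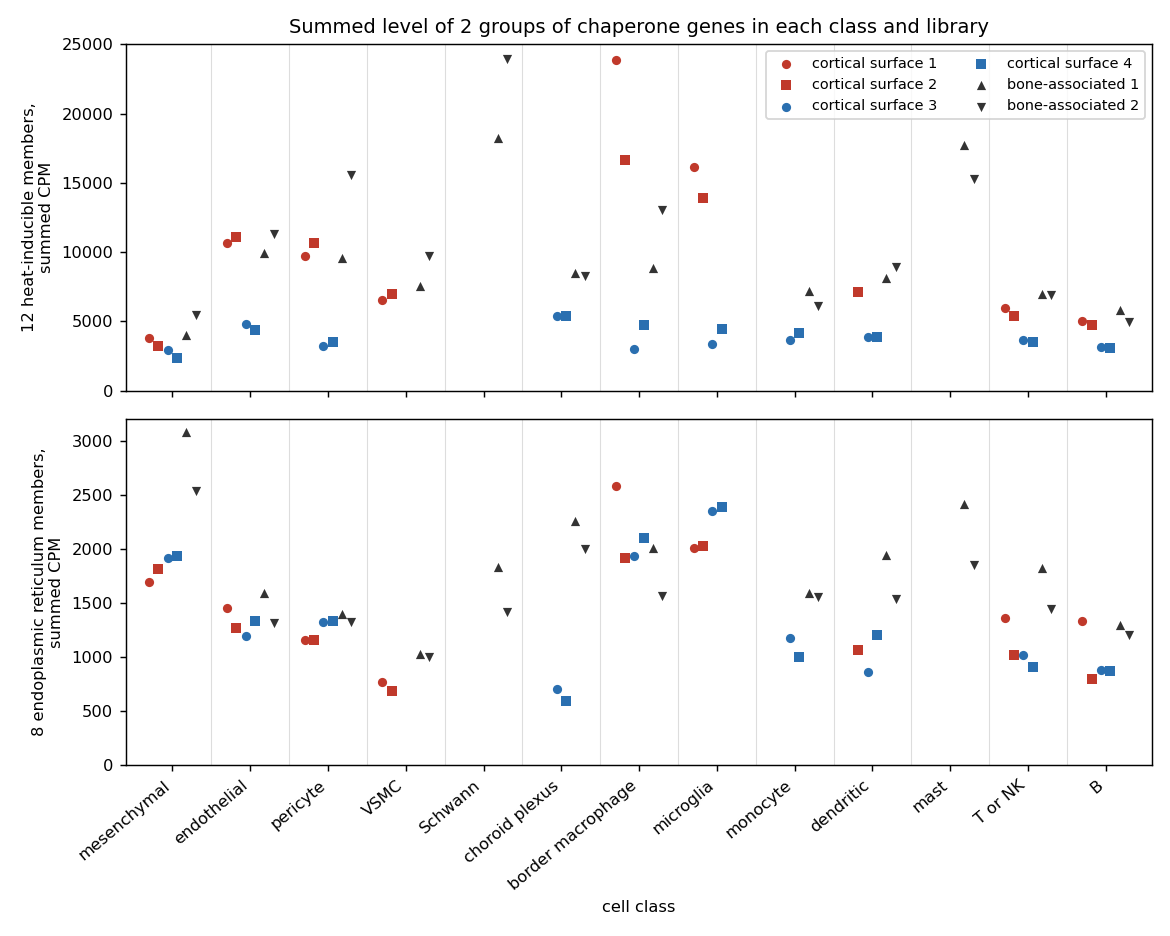
Summed CPM of the 12 heat-inducible members and of the 8 ER members (linear axes) in each cell class, with 1 point per library, cortical surface libraries 1 and 2 in red, 3 and 4 in blue and bone-associated libraries as dark triangles. In border macrophage-like cells the heat-inducible sum runs from 3014 to 23901 CPM, and the ER sum from 1566 to 2580 CPM.

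Hspa1a and Hspa1b spread widely over the libraries. In endothelial-like cells Hspa1a had 2049 and 2161 CPM in cortical surface libraries 1 and 2, 46.1 and 169 CPM in libraries 3 and 4, and 1374 and 1706 CPM in bone. In pericyte-like cells Hspa1a had 2949 and 3725 CPM, then 184 and 320 CPM, and 1663 and 3571 CPM in bone. In border macrophage-like cells Hspa1a had 4365 and 3801 CPM, then 98.7 and 738 CPM, and 1066 and 2375 CPM in bone. In each of these 3 classes the bone libraries lay inside the range of the cortical surface libraries. Hspa1a was lower in B-like and T or NK-like cells than in these 3 classes of the same library, with 649, 368, 6.54 and 32.3 CPM in cortical surface B-like cells and 11.2 and 37.5 CPM in those of bone. Mesenchymal-like cells had 193, 93.3, 39.9 and 78.8 CPM in the cortical surface and 215 and 521 CPM in bone, where the groups did not overlap. Hspa8 differed less between libraries than Hspa1a, but not evenly over classes. It had 921, 1161, 957 and 730 CPM in cortical surface endothelial-like cells and 1547 and 1646 CPM in bone. In the cortical surface its mean was 2454 CPM (SD 1704) in border macrophage-like and 1930 CPM (SD 1090) in microglia-like cells. Over 7 classes libraries 1 and 2 exceeded 3 and 4 by 0.30 to 1.89 on the log2 scale, against 1.26 to 4.64 for Hspa1a.

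**Figure D2:**
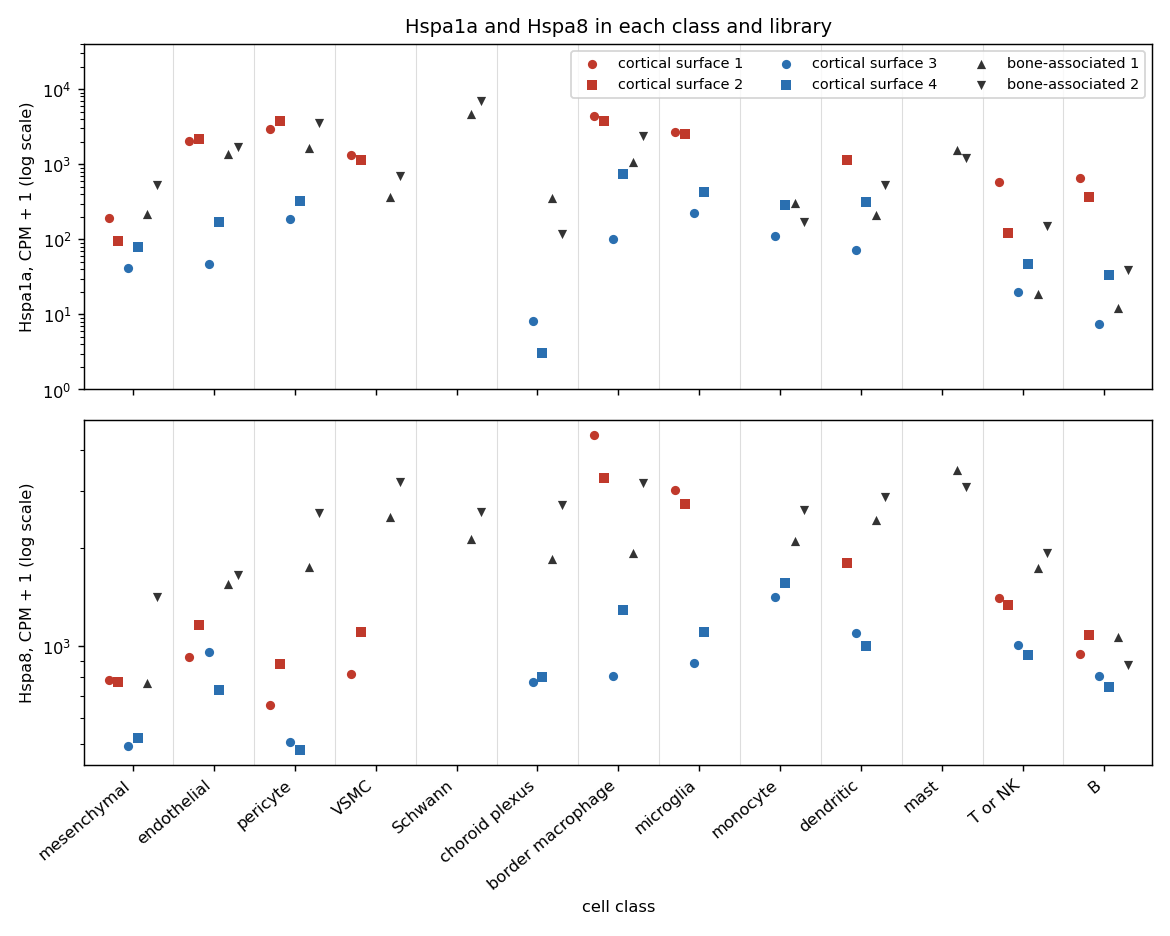
CPM + 1 of Hspa1a and of Hspa8 on log axes for each class, with 1 point per library in the colours of the libraries (cortical surface 1 and 2 red, 3 and 4 blue, bone-associated dark triangles). Hspa1a in endothelial-like cells runs from 46.1 to 2161 CPM within the cortical surface, and Hspa8 from 730 to 1161 CPM. Hspa8 spreads more in cortical surface border macrophage-like cells, with a mean of 2454 and a lowest value of 805 CPM.

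The 4 cortical surface libraries were set in pairs, 1 and 2 beside 3 and 4, which are not groups of the study and were compared without a test. The same pairs differed in hemoglobin share, but they were also seen in the heat-inducible levels above. The counts for that set therefore describe the split and are not separate support for it. In all, 7 classes had at least 10 cells in each of the 4 libraries. In T or NK-like cells 11 of 11 measured members of the heat-inducible set were higher in both libraries 1 and 2 than in either of 3 and 4, against 27.8% of all genes. In border macrophage-like cells, with the difference in clusters given above, it was 12 of 12 (19.5% of all genes), in microglia-like cells 12 of 12 (21.2%), in pericyte-like cells 9 of 12 (18.9%) and in B-like cells 9 of 11 (21.7%). In mesenchymal-like cells it was 8 of 12 (24.5%) and in endothelial-like cells 7 of 12 (26.7%). Hspa1a, Hspa1b, Dnajb1, whose protein is the main J-domain partner of inducible HSP70, and the inducible HSP90 gene Hsp90aa1 were higher in all 7 classes, with median log2 differences of 3.40, 3.77, 1.94 and 0.71. Of the ER members 2 of 7 were higher in B-like cells, 2 of 8 in T or NK-like and border macrophage-like cells, 1 of 8 in endothelial-like and microglia-like cells and 0 of 8 in mesenchymal-like and pericyte-like cells. In microglia-like cells 5 of 8 were lower in libraries 1 and 2 (20.8% of all genes). Dnajb9, which sends misfolded ER proteins to degradation, was higher in 4 of the 7 classes, with a median log2 difference of 0.67, and Hspa5 in 3, with 0.17. Immediate-early genes, transcription factors and regulators induced within minutes of stimulation, were higher in libraries 1 and 2 for 18 of 20 in border macrophage-like cells and 18 of 19 in pericyte-like cells, but for 2 of 19 in mesenchymal-like cells. The hemoglobin share was thus high in libraries 3 and 4, where the heat-inducible set was low. Immediate-early genes went with the heat-inducible set over these libraries, but not in mesenchymal-like cells. The part of blood, handling or run in these differences was not tested.

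**Figure D3:**
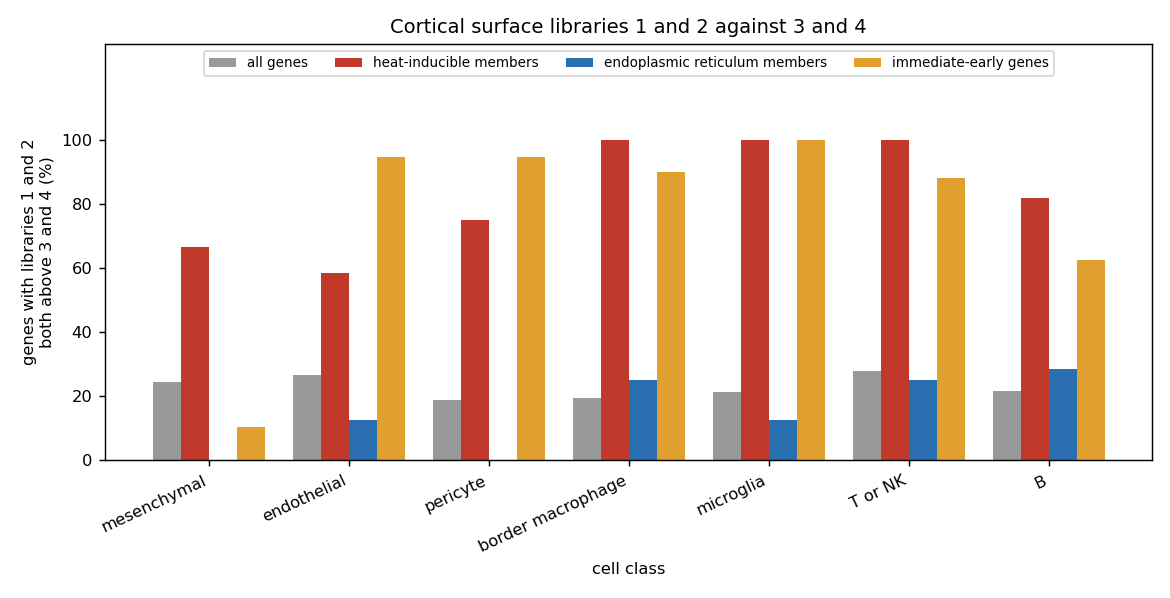
Percent of genes with cortical surface libraries 1 and 2 both above libraries 3 and 4, as bars from 0 for all genes, the heat-inducible set, the ER members and the immediate-early genes in each of 7 classes. The bars of the heat-inducible set stand above those of all genes (18.9% to 27.8%) in every class.

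The first comparison of classes asked where members differ between vascular and stromal cells (mesenchymal, endothelial, pericyte and vascular smooth muscle, VSMC) and immune cells. The small heat shock genes Hspb1, Hspb2 and Hspb8 were higher in vascular and stromal cells of both preparations, and Hspa8 and Hspe1 lower. Within the cortical surface 24 members were higher and 15 lower of 54 tested, where 39.4% of all genes were higher and 23.2% lower. Within bone 20 were higher and 20 lower of 55, against 34.7% and 27.2% of all genes. A majority of all genes differed here, so these counts are not a result about the members. Hspb1, which encodes HSP27, an actin-stabilizing small heat shock protein, had a log2 difference of 6.16 (SE 0.39, adjusted p = 8.8e-17) in the cortical surface and 5.81 (SE 0.31, adjusted p = 1.16e-11) in bone. These p-values are from the edgeR quasi-likelihood test with Benjamini-Hochberg adjustment over all genes, as are those below. Hspb2 was higher by 6.35 and 5.67 and Hspb8, whose protein works with BAG3 in clearing damaged muscle proteins, by 5.79 and 8.03, but few immune UMIs stood behind these folds and their size depends on the prior count. Hspe1, the mitochondrial co-chaperonin, had log2 differences of -1.12 and -1.51. Hspa8 had -0.96 and -0.53. Dnajb1 had -1.89 (SE 0.23, adjusted p = 4.11e-09) in the cortical surface and 0.14 (adjusted p = 0.614) in bone. Hspa1a had -0.20 (adjusted p = 0.515) and 1.51 (SE 0.28, adjusted p = 0.000145), and Hspa1b had -1.03 (adjusted p = 0.000303) and 0.48 (adjusted p = 0.126), in the same order. For these 3 genes the value was higher in bone than in the cortical surface. The immune side differed between the preparations, with microglia-like and neutrophil-like cells only in the cortical surface and mast-like cells only in bone. The difference was tested below as an interaction in a separate fit, whose immune side held only classes present in both preparations.

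Among the vascular and stromal classes, the small heat shock genes had different orders. Hspb1 had 2597, 2739, 957 and 906 CPM in endothelial-like cells of the cortical surface and 1627 and 2445 CPM in bone. VSMC-like cells had 1737 and 2355 CPM of Hspb1 in cortical surface libraries 1 and 2 and 1241 and 1842 CPM in bone. Mesenchymal-like cells had less Hspb1, from 189 to 352 CPM over the 6 libraries, and B-like cells had 14.6 CPM or less. Endothelial-like and VSMC-like levels of Hspb1 overlapped, and all mesenchymal-like libraries lay below both. Hspb6, whose protein HSP20 takes part in smooth muscle relaxation, had 39.6 and 50.1 CPM in cortical surface VSMC-like cells and 126 and 110 CPM in bone, against 1.51 to 6.60 CPM in pericyte-like cells. Hspb7, a small heat shock gene of muscle, had 26.4 to 38.2 CPM in VSMC-like cells and at most 6.92 CPM in pericyte-like cells. Hspa12b, an endothelial HSP70 relative, had 87.0 to 145 CPM in endothelial-like cells of all 6 libraries and 15.8 CPM or less in mesenchymal-like cells.

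VSMC and pericytes are the contractile and the capillary mural cells, and 7 members were higher and 4 lower in VSMC-like than in pericyte-like cells of the cortical surface (11.3% and 10.1% of all genes), and 5 higher and 4 lower in bone (7.70% and 8.21%). Hspb2 was higher in VSMC-like cells by 1.17 in the cortical surface and 1.28 in bone on the log2 scale. Hspb6 was higher by 4.89 (adjusted p = 5.03e-06, edgeR) in bone, and Hspb8 by 2.81 in the cortical surface. Hspa1b was lower in VSMC-like cells in both preparations, with log2 differences of -2.16 (adjusted p = 0.00123) and -2.52 (adjusted p = 0.00759). In Hspa1b the levels were 533 and 263 CPM in cortical surface VSMC-like cells against 2758 and 2487 CPM in the pericyte-like cells of the same libraries, and 183 and 388 CPM against 1366 and 2507 CPM in bone. With the size factors of DESeq2 in place of TMM the cortical surface comparison gave 5 members higher and 5 lower, and 42.3% of all calls were higher in place of 52.9%.

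**Figure D4:**
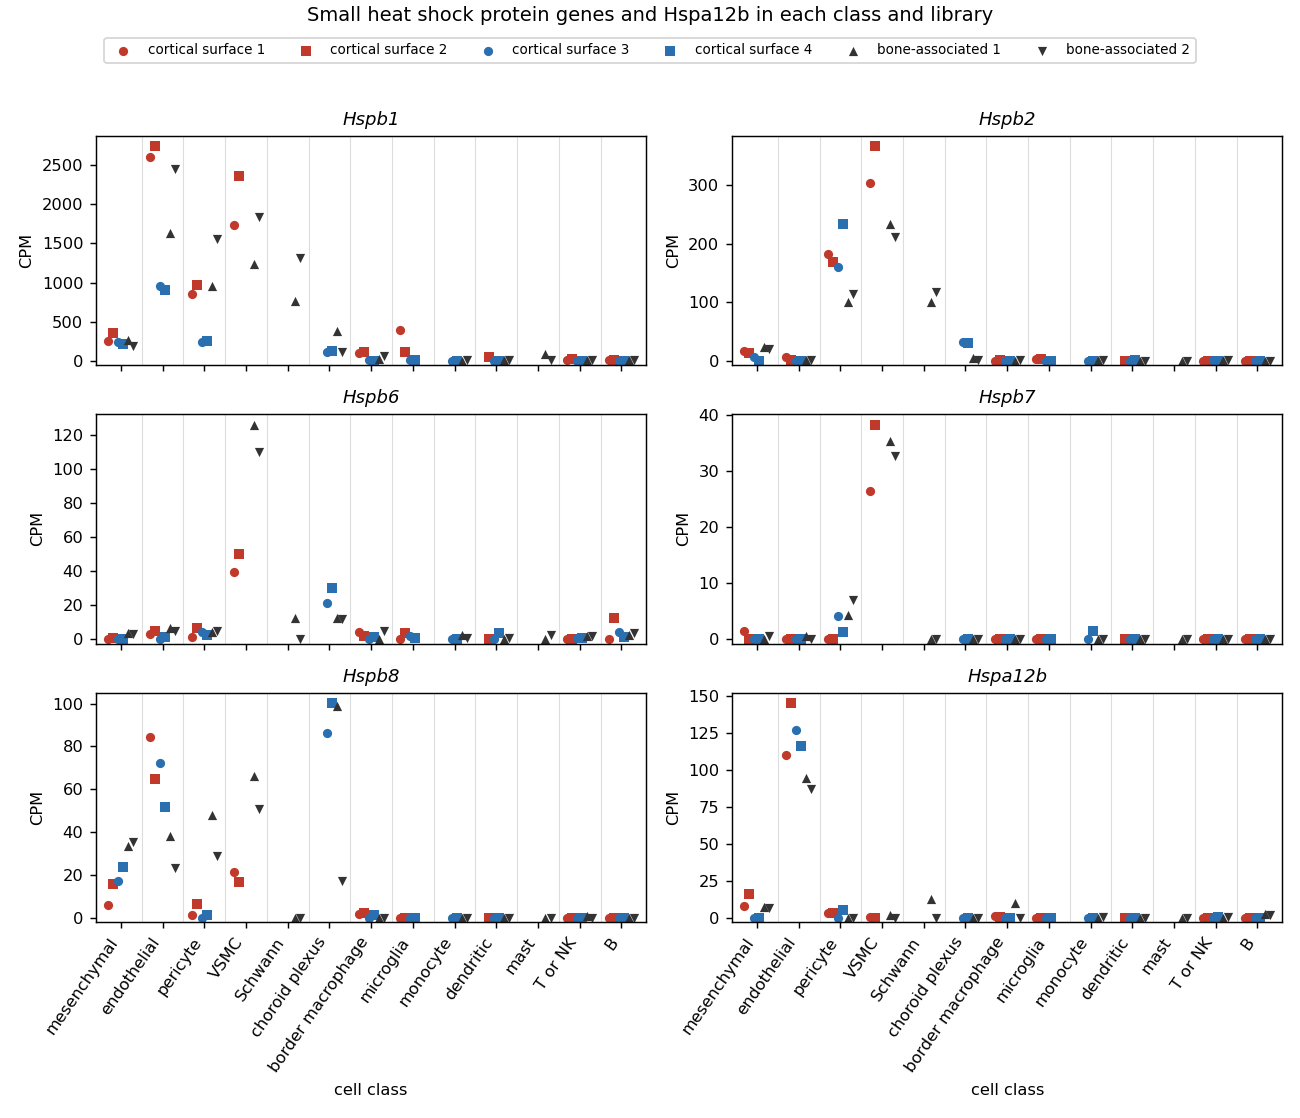
CPM of Hspb1, Hspb2, Hspb6, Hspb7, Hspb8 and Hspa12b in each class on linear axes, with 1 point per library in the same colours. Hspb1 reaches 2739 CPM in endothelial-like and 2355 CPM in VSMC-like cells, Hspb6 has 39.6 to 126 CPM in VSMC-like cells and Hspa12b 87.0 to 145 CPM in endothelial-like cells.

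Among immune cells, lymphoid cells (T or NK-like and B-like) had less inducible HSP70 than myeloid cells. The myeloid side held border macrophage-like, monocyte-like and dendritic-like cells, and in the cortical surface also microglia-like and neutrophil-like cells. Within the cortical surface 12 members were higher and 10 lower in lymphoid cells (26.6% and 19.4% of all genes), and within bone 7 were higher and 11 lower (19.2% and 22.8%). Hspa1a had log2 differences of -2.35 (adjusted p = 1.5e-07, edgeR) in the cortical surface and -3.71 (adjusted p = 6.25e-06) in bone, and Hspa1b had -1.96 and -3.46. Dnajb14, a J-domain gene of the ER membrane, was lower by 2.99 and 4.30. Dnajb14 had 87.4 to 154 CPM in border macrophage-like cells and at most 24.5 CPM in B-like cells, and the libraries did not overlap. Dnajc9, whose protein is a histone chaperone, was higher by 2.54 and 1.99, with 78.3, 196, 113 and 106 CPM in cortical surface B-like cells and 9.65 to 21.7 CPM in border macrophage-like cells. With the size factors of DESeq2 the cortical surface comparison gave 10 members higher and 15 lower, and 40.5% of all calls were higher in place of 57.8%. That scaling moved the median of all genes by -0.24.

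Border macrophages and microglia share a macrophage program, and 11 members were higher and 6 lower in border macrophage-like cells, against 19.7% and 14.4% of all genes. Hspa4l, an HSP110 gene, was higher by 1.71, Dnajc15, a mitochondrial import J-protein, by 1.22, and Hspa5 by 0.79 on the log2 scale. Dnajc18 had a log2 difference of -1.60, Dnajc25 -1.24 and Hsp90b1, the ER HSP90 gene, -0.48. Hsph1 was higher by 1.01, but had -0.26 without cortical surface libraries 1 and 2, and Dnaja1 was higher by 1.03 and had 0.08 without them. Of the 17 calls, 5 stood with any 1 library left out, and the counts then ran from 10 to 14. The balance turned with the scaling, with 9 members higher and 10 lower under the size factors of DESeq2 and 8 and 11 by DESeq2 itself, where 47.3% of all calls were higher in place of 57.7%.

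The preparations were then compared within each class, as bone-associated minus cortical surface libraries. Over 8 classes, edgeR called members of the heat-inducible set higher in bone in 7, and no member of that set in border macrophage-like cells. The counts were 4 of 12 in mesenchymal-like and endothelial-like cells (11.2% and 8.72% of all genes), and 6 of 12 in pericyte-like cells (6.59%). They were 5 of 11 in monocyte-like (6.99%), 6 of 11 in T or NK-like (11.5%) and 4 of 9 in B-like cells (3.73%). In VSMC-like cells 4 of 12 were higher (6.63%) and 1 lower. DESeq2 called 1, 4, 6, 3, 6, 0 and 3 higher in the same order. The set was chosen with earlier results of these data known, so its counts beside the shares of all genes are a description. Clusters were named separately in the preparations, so a class could hold different cells in each. The mesenchymal-like cells were led by Slc22a6 and Slc6a13 in the cortical surface, and by Comp and Cilp2 (190 cells) or Apod and Inmt (91 cells) in bone. Cell mix and level per cell cannot be told apart in these sums.

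In pericyte-like cells 8 members were higher and 0 lower of 52 tested, where 6.59% of all genes were higher and 2.65% lower (13 and 5 members at an unadjusted p under 0.05, and 7 and 0 by DESeq2). Of these, 6 belonged to the 12 heat-inducible members (set median 1.26 on the log2 scale, all genes -0.02). Dnajb1 had 57.6, 88.0, 41.0 and 24.9 CPM in the cortical surface and 218 and 764 CPM in bone, a log2 fold change of 3.41 (SE 0.41, adjusted p = 2.46e-05, edgeR). The nucleotide exchange gene Hsph1 had 40.9, 53.9, 4.10 and 23.6 CPM against 135 and 160 CPM (2.28, SE 0.37, adjusted p = 0.000385). Hspa8 had 654, 880, 504 and 478 CPM against 1746 and 2552 CPM (1.95, SE 0.26, adjusted p = 6.38e-05). In each of these 3 genes both bone libraries lay above all 4 cortical surface libraries. Dnaja1, a J-domain partner of Hspa8, rose by 1.72 (280, 350, 283 and 244 against 838 and 856 CPM), and Dnajb4, a related J-domain gene, by 1.74. Hspb8 had 1.51, 6.60, 0 and 1.39 CPM against 48.0 and 28.8 CPM, a fold of 3.57 that rests on few cortical surface UMIs. Hspa1a and Hspa1b were not called, since their cortical surface libraries spanned 184 to 3725 CPM and 81.9 to 2758 CPM. Against libraries 3 and 4 alone they were called higher in bone, by 3.56 and 3.71, among 11 members higher and 0 lower. Against libraries 1 and 2 alone 7 members were higher and 0 lower. Dnajb1, Hsph1, Hspa8, Dnaja1, Dnajb4 and Hspb8 kept their calls with any 1 library left out, while Hsp90aa1 (1.23) and Dnaja4 (2.03) lost theirs without bone library 2.

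VSMC-like cells could be compared only with cortical surface libraries 1 and 2. In all, 8 members were higher and 2 lower of 58 tested (6.63% and 3.12% of all genes). Hspa8 had 815 and 1105 CPM in the cortical surface and 2498 and 3187 CPM in bone (1.69, SE 0.28, adjusted p = 0.000361, edgeR). Dnaja1 had 233 and 217 against 589 and 615 CPM (1.55, SE 0.23, adjusted p = 0.00013), and Hspa5 186 and 221 against 452 and 424 CPM (1.22, SE 0.24, adjusted p = 0.00156). The groups did not overlap in these members, nor in Hspb8 (21.1 and 16.7 against 66.0 and 50.8 CPM) and Hspb6, which rose by 1.76 and 1.5. Hspa1a moved the other way, with 1312 and 1145 CPM against 366 and 688 CPM (-1.08, SE 0.29, adjusted p = 0.0203), a call lost without bone library 1. Hspa1l, an HSP70 gene known from the testis, had 21.1 and 25.9 against 1.71 and 5.03 CPM (-2.64). Hspa1l lies beside Hspa1a in the genome, and whether its UMIs are its own was not tested. The calls of Dnajb1 (1.58) and of Dnajb9 (1.02), an ER J-domain gene, were lost without bone library 2, and that of Hsp90ab1 (0.83) whichever of the 4 libraries was left out.

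In endothelial-like cells 6 members were higher and 1 lower of 52, near the 8.72% and 5.25% of all genes. Hspa2, an HSP70 gene best known from spermatogenesis, had 9.56, 8.08, 0 and 4.82 CPM in the cortical surface and 62.5 and 68.2 CPM in bone, a log2 fold change of 3.33 (SE 0.32, adjusted p = 6.97e-07, edgeR). Hsph1 had 15.9, 26.1, 34.6 and 12 CPM against 83.4 and 64.2 CPM (1.80, adjusted p = 9.6e-05), and Dnajb1 had 164, 122, 46.1 and 39.8 CPM against 281 and 250 CPM (1.51, adjusted p = 0.00172). These 3 were the members that kept their calls with any 1 library left out. Hspb8 fell by 1.13 (84.5, 64.6, 72.1 and 51.8 against 38.0 and 23.4 CPM), opposite to its direction in pericyte-like and VSMC-like cells, and that call was lost without bone library 2. Without cortical surface libraries 3 and 4 the count was 3 higher and 1 lower. Without libraries 1 and 2 it was 10 higher and 1 lower, with Hspa1a at 3.71 and Hspa1b at 3.66.

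In mesenchymal-like cells 8 members were higher and 3 lower of 55, again near the share of all genes (11.2% and 7.86%), and DESeq2 called 2 higher and 2 lower, 1 of them heat-inducible in place of 4 by edgeR. Hspa5 had 485, 516, 485 and 504 CPM in the cortical surface and 1099 and 995 CPM in bone, with narrow spread in both (1.03, SE 0.24, adjusted p = 0.00189, edgeR). Hspa1a was higher by 1.75 (SE 0.35, adjusted p = 0.000258) and Hspa1b by 1.90 (SE 0.50, adjusted p = 0.00529), calls lost without bone library 2. Against cortical surface libraries 1 and 2 alone 6 members were higher and 3 lower, and against libraries 3 and 4 alone 6 and 1. Dnajc6, which encodes auxilin, the J-protein that uncoats clathrin vesicles, had 57.1, 34.6, 22.8 and 47.3 CPM against 0 and 0.808 CPM (-5.68, adjusted p = 1.99e-08), a size that depends on the prior count. Of the 11 calls, those of Hspa5 and Dnajc6 stood with any 1 library left out, and 2 members were called without bone library 2, the larger library of this class in bone (250 cells against 31).

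Among immune classes, T or NK-like cells had 12 members higher and 3 lower of 41 (11.5% and 7.36% of all genes), with 6 of 11 tested heat-inducible members higher (set median 0.70, all genes -0.04). Dnajb6, which keeps aggregation-prone proteins soluble, had 185, 211, 156 and 154 CPM in the cortical surface and 530 and 465 CPM in bone (1.55, SE 0.19, adjusted p = 0.000382, edgeR). Dnaja1 had 456, 540, 431 and 394 CPM against 999 and 985 CPM (1.17, SE 0.18, adjusted p = 0.00115). Hspa2 had 3.71, 13.9, 2.80 and 2.54 CPM against 43.6 and 32.1 CPM (3.28, SE 0.44, adjusted p = 0.000588). Bone was above every cortical surface library in these 3 and in Hsph1 (1.48), and these 4 calls stood with any 1 library left out. Dnajc24 (-1.28), Hspb11 (-1.02) and Dnajc15 (-0.99) fell. Without bone library 1, 4 members were called, and without cortical surface libraries 3 and 4, 3 were (Dnajb6 and Dnaja1 higher, Hspa1b at -2.34). Without libraries 1 and 2 there were 14 higher and 3 lower. T or NK-like clusters led by Cd163l1 and Trdc, genes of gamma-delta T cells, held 162 cells in bone and 48 in the cortical surface.

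Monocyte-like cells could be compared only with cortical surface libraries 3 and 4, where 7 members were higher and 0 lower of 44 (6.99% and 1.88% of all genes). At an unadjusted p under 0.05 edgeR gave 14 and 0, and DESeq2 called 5 and 0. Hsp90aa1 had 266 and 269 CPM in the cortical surface and 850 and 617 CPM in bone (1.56, SE 0.25, adjusted p = 2.54e-05, edgeR), and Dnajb9 had 29.6 and 34.9 against 138 and 81.8 CPM (1.79, SE 0.34, adjusted p = 0.000373). The groups did not overlap, and these 2 calls stood with any 1 library left out, while 4 members were called without cortical surface library 3 or 4. In B-like cells edgeR called 5 members higher and 0 lower of 31 (3.73% and 2.24%), 7 and 4 passed at an unadjusted p under 0.05, and DESeq2 called 0. Among the 5 were Hsp90ab1 (1354, 1276, 1171 and 1182 against 2335 and 1950 CPM, 0.69, SE 0.18, adjusted p = 0.0263, edgeR) and Hspa14. Hspa14, which encodes a ribosome-bound HSP70, had 11.2, 36.8, 32.7 and 42.3 against 104 and 103 CPM (1.41, SE 0.31, adjusted p = 0.00805). No member of B-like cells was called without cortical surface library 3, or without libraries 3 and 4 together, and 7 were higher and 2 lower without libraries 1 and 2.

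Border macrophage-like cells had 1 call in 49 members tested, against 6.99% of all genes higher and 2.04% lower. Dnajb6 had 173, 153, 151 and 140 CPM in the cortical surface and 251 and 267 CPM in bone (0.91, SE 0.20, adjusted p = 0.0164, edgeR), a call lost without bone library 2. Of 12 heat-inducible members 0 were called by edgeR, 0 at an unadjusted p under 0.05 and 0 by DESeq2, with a median of -0.01. The direction depended on which cortical surface libraries entered. Dnajb1 had 1433 and 989 CPM in libraries 1 and 2, 67.1 and 166 CPM in libraries 3 and 4, and 150 and 336 CPM in bone. Against libraries 1 and 2 alone Dnajb1 was lower in bone by 2.07 and Hspa1b by 0.99. Against libraries 3 and 4 alone 14 members were higher and 1 lower, led by Hspb1 (4.57), Hsph1 (3.01) and Hsp90aa1 (2.60). Bone library 1 held 15 cells of this class.

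**Figure D5:**
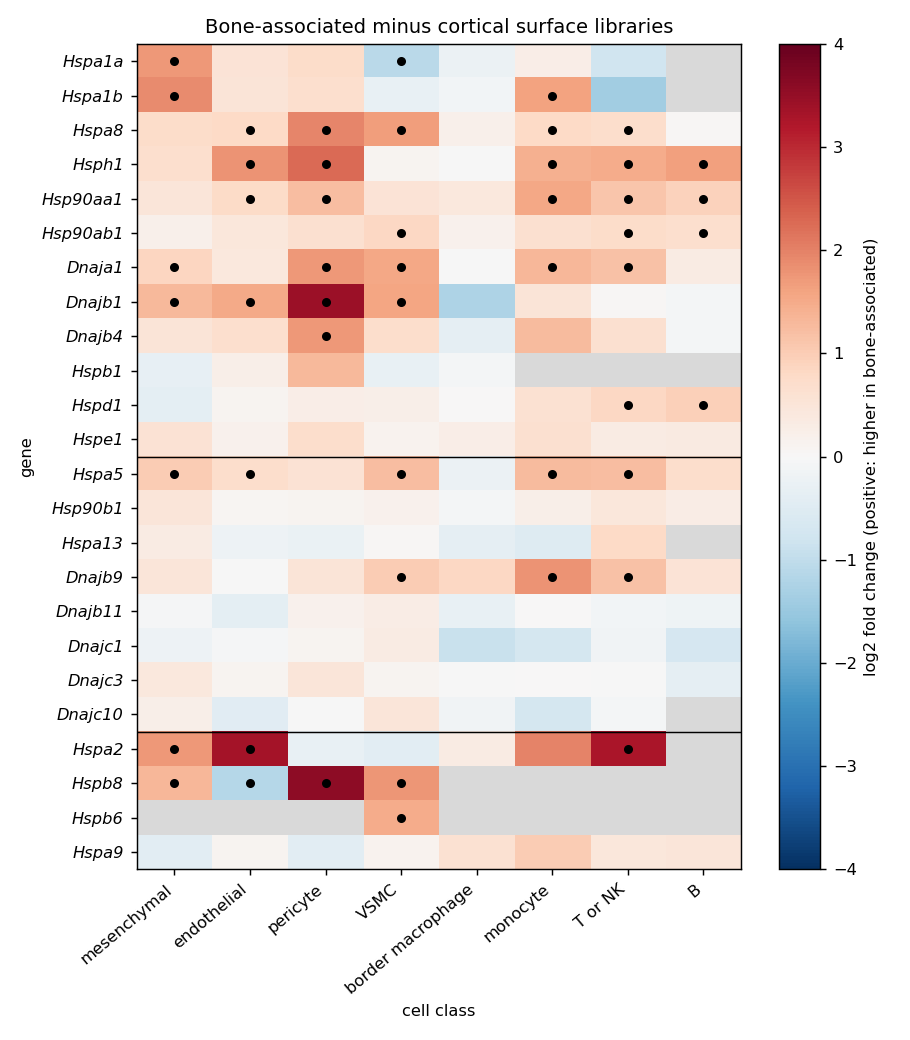
Log2 fold change of bone-associated minus cortical surface libraries for 24 members (vertical) in 8 classes (horizontal), as colour, with a black dot where the adjusted p was under 0.05, grey where a gene was not tested, and lines between heat-inducible, ER and other members. Dnajb1, Hsph1, Hspa8 and Dnaja1 are higher in bone with a dot in pericyte-like cells (3.41, 2.28, 1.95 and 1.72), and no heat-inducible member has a dot in border macrophage-like cells.

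Whether the preparation difference itself differed between the vascular and stromal and the immune classes was tested as an interaction. Of 54 members tested, 7 had a larger difference (bone minus cortical surface) in vascular and stromal cells and 5 a larger one in immune cells (3.85% and 7.14% of all genes). Dnajb1 led with 2.81 (SE 0.36, adjusted p = 7.91e-07, edgeR), then Hspa1a with 2.34 (SE 0.39, adjusted p = 5.53e-05) and Hspa1b with 2.19 (SE 0.34, adjusted p = 1.42e-05). Dnajb6 went the other way with -1.04 (adjusted p = 8.67e-07), as did the mitochondrial HSP70 gene Hspa9 with -0.87 and the HSP110 gene Hspa4 with -0.68. Dnajb1, Dnajb6, Hspa9 and Hspa4 kept their calls with any 1 library left out. Hspa1a and Hspa1b lost theirs without cortical surface library 4, with 2.73 (adjusted p = 1.0) and 2.07 (adjusted p = 0.299), and 4 members were then called. They kept them without libraries 3 and 4 together (2.18 and 1.88) and without 1 and 2 (3.93 and 3.22). With the size factors of DESeq2 the same counts of 7 and 5 were found, while 49.8% of all calls were higher in place of 35.0%.

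Among the ER members Hspa5 was called higher in bone in mesenchymal-like, VSMC-like, endothelial-like, monocyte-like and T or NK-like cells, with log2 fold changes of 1.03, 1.22, 0.70, 1.28 and 1.23. Dnajb9 was called higher in VSMC-like, monocyte-like and T or NK-like cells (1.02, 1.79 and 1.17). Of the ER members 1 of 8 was called higher in mesenchymal-like and endothelial-like cells, near the 11.2% and 8.72% of all genes. It was 2 of 8 in VSMC-like, monocyte-like and T or NK-like cells (6.63%, 6.99% and 11.5% of all genes). In B-like cells it was 0 of 6, with 1 at an unadjusted p under 0.05 and 0 by DESeq2. Of 8 ER members 0 were called by edgeR in pericyte-like cells (set median 0.13) and 0 in border macrophage-like cells (-0.19). At an unadjusted p under 0.05 these counts were 2 higher and 1 lower, and DESeq2 called 0 in both. Hspa5 had 335, 405, 410 and 391 CPM against 480 and 532 CPM in pericyte-like cells, and 1524, 1053, 918 and 999 CPM against 931 and 785 CPM in border macrophage-like cells. Of the mitochondrial members 1 of 5 was called higher and 1 lower in T or NK-like cells (11.5% and 7.36% of all genes). In B-like cells 1 of 6 was called higher (3.73%). In the other 6 classes 0 were called by edgeR or DESeq2, with 0 to 3 of them per class under an unadjusted p of 0.05. Hspd1, the HSP60 chaperonin, had 200, 152, 125 and 140 CPM in cortical surface T or NK-like cells and 274 and 248 CPM in bone (0.82), and 112, 135, 98.1 and 100 CPM against 272 and 175 CPM in B-like cells (0.96). Dnajc15 fell in T or NK-like cells, with 200, 246, 240 and 257 against 110 and 123 CPM.

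Of the HSF factors and co-chaperones that work with these proteins, 2 of 28 were called higher in bone in mesenchymal-like cells (11.2% of all genes), 3 of 26 in endothelial-like (8.72%), 2 of 25 in pericyte-like (6.59%), 2 of 26 in VSMC-like (6.63%), 2 of 23 in monocyte-like (6.99%) and 2 of 22 in T or NK-like cells (11.5%). In these 6 classes the shares were near those of all genes. In B-like cells (19 tested) and border macrophage-like cells (24 tested) edgeR called 0 higher, with 0 at an unadjusted p under 0.05 and 0 by DESeq2. Bag5, a nucleotide exchange co-chaperone of HSP70, was called lower in border macrophage-like cells by edgeR (-1.66). It was 1 of the 24 tested (2.04% of all genes were lower). At an unadjusted p under 0.05, 5 of the list were lower, and DESeq2 called 0 lower. Bag3, which links HSP70 to small heat shock proteins, was higher by 1.83 in pericyte-like, 2.47 in VSMC-like and 1.3 in mesenchymal-like cells. Serpinh1, the collagen chaperone HSP47, was higher by 1.57 in mesenchymal-like cells and 0.90 in endothelial-like cells. Cryab, a small heat shock protein of lens and muscle, had -1.02 in pericyte-like cells. Of the 7 measured subunits of the CCT chaperonin, which folds actin and tubulin, 0 were called by edgeR or DESeq2 in any of the 8 classes, and 0 passed at an unadjusted p under 0.05. Of 20 immediate-early genes 11 were higher in bone in pericyte-like cells (6.59% of all genes) and 15 in mesenchymal-like cells (11.2%). Their summed level in pericyte-like cells was 16284, 22918, 4186 and 4746 CPM in the cortical surface and 23063 and 28130 CPM in bone, with libraries 3 and 4 below the others as in the heat-inducible sum.

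Genes outside the family were ranked by likeness to the heat-inducible set, taken as the sum of the log2 levels of its genes. Pearson's r was computed over 69 combinations of library and class, among 9381 genes. Erf, a repressor of the ETS family, had r = 0.816, Mat2a 0.804, Jun 0.804, Uap1 0.798 and Irf2bpl 0.791. These points share libraries, depth and clusters, so r is given as a description.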

How the data were processed

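The authors deposited UMI counts per gene and cell, made with Cell Ranger (version 3 in the submitters' processing notes and 6.1.2 in the file header) against mm10. The annotation they used is not given in the sources used here. Cells were kept from 500 detected genes upward and up to 10% mitochondrial UMIs, and 124 likely doublets were removed. Total UMIs were 8408685 to 56169736 per library. Each preparation was clustered separately on 2000 variable genes (members, hemoglobin and mitochondrial genes left out), 30 principal components and the Leiden method (leidenalg 0.10.2, igraph 0.11.9, resolution 1.5), in Python 3.11.15 with numpy 2.4.6, scipy 1.17.1 and scikit-learn 1.9.0. Clusters were named from marker lists.

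Counts were summed for each library and class with at least 10 cells, without hemoglobin genes, and fitted with edgeR 4.0.16 (R 4.3.3, TMM, quasi-likelihood test, Benjamini-Hochberg over all genes tested, called at 0.05). Between preparations, the genes tested were those detected in more than 10% of cells in 1 of the groups, and between classes those with a mean of at least 10 CPM, where library was a covariate. Fits were tested on simulated data. The members and gene lists were chosen with earlier results of these data known. Always named were 22 members (the heat-inducible set with Hsp90b1, Hspa5, Hspa9, Hspb6, Hspb7, Hspb8, Hspa12b, Hspa2, Dnajb9 and Dnajc3), and in each comparison the 3 called members with the largest change in each direction. Dnaja4 and, in the interaction, Hspa4 and the other called members outside this rule were named after their values were seen. Alternatives were DESeq2 1.42.0, its size factors, other filters, clustering and doublet settings, cells thinned to 1500 UMIs, a replicate block, and libraries left out.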

Additional observations from a re-analysis of the deposited data

Results flagged for a closer look

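A single sample lay far from the others of its group in 1 of 28 sets tested with Dixon's gap, a number that chance alone gives for about 1 in 20. The summed level of the ER members in B-like cells was 1331 CPM in cortical surface library 1, against 797, 878 and 870 CPM in libraries 2, 3 and 4. That unit held 18 cells.

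The preparation difference (bone-associated minus cortical surface) differed between the vascular and stromal classes and the immune classes in 12 members by the interaction term of edgeR. It was larger in the vascular and stromal classes for Dnajb1 (2.81), Hspa1a (2.34), Hspa1b (2.19), Dnajb4 (0.88), Hspa8 (0.82), Hspb11 (0.60) and Dnajc1 (0.55) on the log2 scale. It was larger in the immune classes for Dnajb6 (-1.04), Hspa9 (-0.87), Dnajb2 (-0.77), Hspa4 (-0.68) and Hspd1 (-0.68). The calls of Dnajb1, Dnajb6, Hspa9 and Hspa4 were kept with any 1 library left out, and 4 members were called without cortical surface library 4.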

How the results depend on the processing

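Counts of called members moved by over 1.5 times under the settings named here and by less under the others run. None of these counts has the share of all genes under the same setting beside it. A fold of at least 1.3 on the log2 scale left 6 in mesenchymal-like, 3 in endothelial-like, 6 in VSMC-like, 0 in border macrophage-like, 3 in T or NK-like and 2 in B-like cells between preparations. Between cortical surface classes it left 11 (vascular and stromal against immune), 5 (lymphoid against myeloid), 4 (VSMC against pericyte) and 3 (border macrophage against microglia), between bone classes 12, 4 and 5, and 3 in the interaction. DESeq2 called 4 in mesenchymal-like and 0 in B-like cells. Cells thinned to 1500 UMIs gave 6, 3, 5, 5, 0, 3 and 9 calls in mesenchymal-like, endothelial-like, pericyte-like, VSMC-like, border macrophage-like, monocyte-like and T or NK-like cells, 22 and 24 for vascular and stromal against immune in cortical surface and bone, 7 for border macrophage against microglia and 5 in the interaction. Thinning gave summed heat-inducible levels of 6789 CPM in bone T or NK-like, 7737 in choroid plexus-like and 7899 in dendritic-like cells of bone, and 5102 in choroid plexus-like cells of the cortical surface. With hemoglobin kept choroid plexus-like cells of the cortical surface had 5053 CPM, and erythroid-like cells had 203.9 CPM. Restricted, after the data were seen, to the cluster led by Ms4a14, border macrophage-like cells of the cortical surface had a mean of 7963 CPM in place of 12079 CPM.

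Without cortical surface libraries 1 and 2 the counts were 7 (mesenchymal), 11 (endothelial), 15 (border macrophage), 9 (B), 24 (vascular and stromal against immune) and 7 (border macrophage against microglia). Without libraries 3 and 4 they were 4 (endothelial), 2 (border macrophage), 3 (T or NK) and 0 (B). With no filter on low counts there were 3 in border macrophage-like cells and 17 for VSMC against pericyte in the cortical surface. A clustering resolution of 2.5 gave 2 (border macrophage) and 4 (monocyte), and at most 5% mitochondrial UMIs gave 0 (B), 11 (lymphoid against myeloid in bone) and 6 (interaction). Leaving out each replicate in turn gave 2 to 11 calls in mesenchymal-like, 0 to 2 in border macrophage-like, 4 to 9 in monocyte-like, 4 to 15 in T or NK-like and 0 to 8 in B-like cells, 10 to 14 for border macrophage against microglia and 4 to 8 in the interaction. The cause of these changes was not tested.

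Of the single-member calls checked, 53 held under every setting run, 91 were lost under at least 1 and 9 reversed under at least 1. Those that reversed follow. Hspa1b in monocyte-like cells had -0.13 at resolution 2.5, Hspe1 in lymphoid against myeloid cells of the cortical surface -0.29 to 1.07 with 1 replicate left out in turn and -0.70 without libraries 3 and 4, and Hsph1 in border macrophage against microglia -0.26 without libraries 1 and 2. At most 5% mitochondrial UMIs gave -0.016 for Hspa2 (vascular and stromal against immune, cortical surface) and 0.30 for Hsp90b1 in bone. Thinning gave -0.027 for Hspb8 in border macrophage against microglia and 0.40 for Dnajb2 in the interaction. Dnajc3 in lymphoid against myeloid cells of bone had 0.12 without doublet removal, and Dnajb4 in the interaction had -0.11 (without cortical surface library 4) to 1.09 with 1 library left out.

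Only numbers 1 and 2 are shared by the preparations. The titles do not say that same-numbered libraries share mice or a day, so the numbers were taken as names. The deviations of same-numbered libraries from the mean of their preparation correlated at 0.0636 to 0.423 over 7 classes, all positive. In VSMC-like cells, with 2 libraries in each preparation, numbers 1 and 2 necessarily gave the same value. With 2 bone libraries, the deviation of library 2 is that of library 1 with its sign reversed. Numbers 1 and 2 set crosswise would therefore give the same values with a negative sign. Cortical surface libraries 3 and 4 were not compared with bone in this way. The values cannot exclude a pairing. The replicate block gave 18 calls in mesenchymal-like, 8 in border macrophage-like and 0 in B-like cells. These counts have no share of all genes beside them, so a change in the members cannot be told from a change in all genes. It could not be fitted in monocyte-like cells. Other settings could not be fitted where too few libraries or cells remained: at most 5% mitochondrial UMIs for pericyte-like and VSMC-like cells, libraries 3 and 4 left out for monocyte-like cells, libraries 1 and 2 left out for VSMC-like cells, and 1 library left out within bone or for cortical surface libraries 1 and 2 in the VSMC against pericyte contrast.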

Other observations

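Classes outside these comparisons had chaperone profiles of their own, given as values. Mast-like cells of bone had 415 and 311 CPM of Dnajb9, the ER J-domain gene that delivers clients for degradation, and 189 and 159 CPM of Hspa2. They were the class with the highest mean for 13 members in bone, beside 7 for VSMC-like and 6 for mesenchymal-like cells. For some of these, among them Hspa8, Hspa5 and Dnaja1, the libraries overlapped those of the next class. How often mast-like cells were highest over all genes was not counted, so the count is not a result about the members. Dnajb1 in mast-like cells was 1565 and 2360 CPM, and their summed immediate-early level was 59286 and 74656 CPM. Library 1 held 15 mast-like cells.

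Neuron-like cells of the cortical surface had 3647, 1415 and 985 CPM of Hsp90aa1 in libraries 2, 3 and 4, from 41, 11 and 22 cells. At the higher clustering resolution the neuron-like cluster held 38, 3 and 3 cells of these libraries. A cluster led by Pclaf, Ctsg and Prtn3, named monocyte-like there, held 2, 8 and 19 cells. The Hsp90aa1 levels in libraries 3 and 4 may thus be mostly those of other cells. Neutrophil-like cells had a low summed level of the heat-inducible set, 639 and 922 CPM in cortical surface libraries 3 and 4 and 1800 CPM in bone library 2. Choroid plexus-like cells had summed ER levels of 703 and 596 CPM in cortical surface libraries 3 and 4 and 2258 and 1997 CPM in bone, and this difference was not tested. The bone class had 35 and 30 cells in libraries 1 and 2, but 13 and 1 without doublet removal, so its values may be those of other cells. The study named choroid plexus cells in the cortical surface and no CNS cell types in bone. Median mitochondrial shares per cell were 0.00651% and 0.0361% in these cortical surface libraries and 3.71% and 4.44% in bone. Within the unfolded protein response list, Atf4, its translationally controlled transcription factor, was higher in bone in mesenchymal-like (1.24), endothelial-like (1.32) and VSMC-like cells (1.69). By edgeR 7 of 19 genes of the list were higher in T or NK-like cells (11.5% of all genes) and 5 of 20 in mesenchymal-like cells (11.2%). It was 3 of 20 in monocyte-like (6.99%), 2 of 19 in endothelial-like (8.72%), 2 of 18 in pericyte-like (6.59%) and 2 of 17 in VSMC-like cells (6.63%). DESeq2 called 4, 3, 2, 1, 2 and 2 in the same order. In B-like (17 tested) and border macrophage-like cells (20 tested) 0 were called by either method, with 4 and 0 higher at an unadjusted p under 0.05.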
